A study of Bos taurus and Bos indicus with 12 samples.

Results

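Skin of tick-infested Brahman cattle was compared with skin of tick-infested Holstein-Friesian cattle, 3 animals of each breed with 1 Affymetrix bovine array per animal. The 6 arrays were chosen by their labels out of 12, and 24016 of the 24128 probe sets on each array were compared, leaving out the 112 control probe sets. Brahman is an indicine (zebu) breed known for resistance to the cattle tick Rhipicephalus microplus, and Holstein-Friesian is a taurine dairy breed. Both infested groups were female and 6 months old, had been through repeated heavy challenge with this tick, and were biopsied through the full skin depth where young larvae were attached. The other 6 arrays came from tick-naive females, 3 Holstein-Friesian animals 12 months old and 3 Brahman animals 18 months old. They entered the fit for the estimate of the spread and give the breed difference in separate animals. The arrays came from separate animals, so the spread includes that between individuals.

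Tick larvae pierce the skin and inject saliva that acts on host haemostasis, inflammation and immunity. The host answers at the bite with leukocyte influx, complement, antibody and repair of the epidermis and the dermal collagen. Skin also makes lipid mediators from fatty acids through lipoxygenases and cytochrome P450 enzymes, which are enzymes of epidermal barrier and inflammation.

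Expression is given as RMA log2 values, so a difference of 1 is 2-fold, and every difference is given as Brahman minus Holstein-Friesian. Each ± after a difference is the SE of the fit, and n = 3 arrays per group except where arrays are left out. Arrays carry the replicate numbers of the labels. The epidermal keratin genes KRT14 and KRT10 stood between 14.23 and 14.41 and between 14.09 and 14.34 in the 6 infested arrays, and the dermal collagen gene COL1A1 between 13.29 and 14.75, so the defining markers of skin were present in each. RNA integrity was not equal between the groups. The mean 5' minus 3' log2 signal of 5 control transcripts, which is lower in more degraded RNA, was -2.73, -0.75 and -1.23 in infested Holstein-Friesian arrays 1 to 3 and -4.91, -2.56 and -2.07 in infested Brahman arrays 1 to 3. The Brahman mean was lower by 1.61 (difference -1.61, exact permutation test, two-sided, p = 0.3, where 0.1 is the smallest p that 3 against 3 can give). Holstein-Friesian 1 lay below Brahman 2 and 3, and Brahman 1 lay below all others.

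Of the 24016 probe sets, 40 (0.167%) differed between the infested breeds by limma at a Benjamini-Hochberg adjusted p below 0.05, 30 (0.125%) higher and 10 (0.0416%) lower in Brahman. In all, 3117 (13%) had an unadjusted p below 0.05. In each of the 40 the 3 Brahman arrays lay outside the range of the 3 Holstein-Friesian arrays, against 13.4% of all probe sets (9.24% higher and 4.16% lower), and 35 of the 40 (0.146% of all) differed at least 2-fold. Lipid-oxidising enzymes (ALOX12E, CYP4A11, CYP39A1) and matrix genes (PCOLCE, CCDC80, OLFML3) were among the genes higher in Brahman. The paraoxonase gene PON3, the vesicle gene SYT4, the MHC class II gene BOLA-DYB, complement C3 and the pyruvate carrier gene MPC1 were among those lower in Brahman. The 40 probe sets held 27 with 1 gene symbol, from 26 genes, 11 without a symbol and 2 with several.

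**Figure D1:**
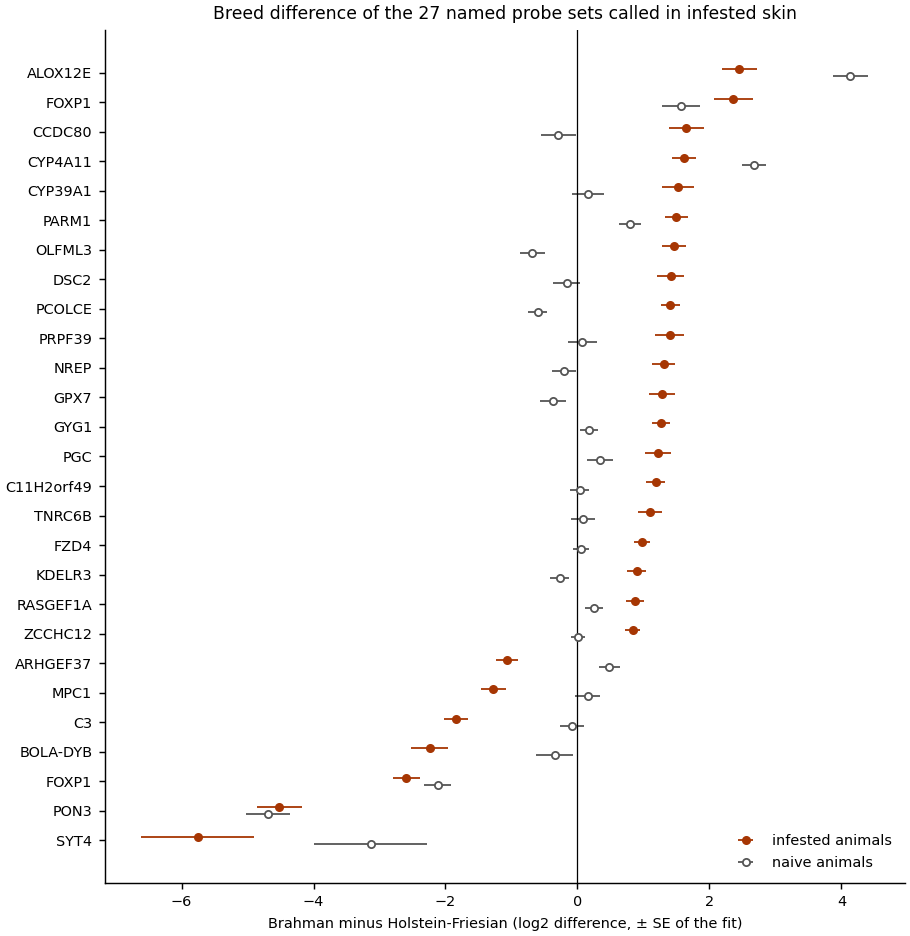
Breed difference (Brahman minus Holstein-Friesian, log2, horizontal axis) of the 27 probe sets with 1 gene symbol that passed in infested skin, one probe set per line, with filled points for infested and open points for naive animals. Bars are the SE of the fit. SYT4 and PON3 have the largest infested differences, at -5.76 and -4.52, and PON3, ALOX12E and CYP4A11 lie far from 0 in both sets of animals, whereas PCOLCE and OLFML3 lie above 0 in infested and below 0 in naive animals.

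Enzymes of lipid oxidation held 3 of the calls. ALOX12E, an epidermal arachidonate lipoxygenase, stood at 8.27, 7.13 and 8.00 in Holstein-Friesian and at 10.29, 10.24 and 10.24 in Brahman skin. The 3 Brahman values were nearly equal and all lay above the Holstein-Friesian ones, a 5.48-fold difference (2.46 ± 0.27, limma adjusted p = 0.00688). CYP4A11, a fatty acid omega-hydroxylase, stood at 4.99, 4.82 and 5.02 against 6.41, 6.36 and 6.90, or 3.06-fold higher in Brahman (1.61 ± 0.18, adjusted p = 0.00688). PON3, a lactonase that acts on oxidised lipids, stood at 8.66, 9.37 and 9.35 in Holstein-Friesian and at 5.20, 4.58 and 4.06 in Brahman skin. It was 22.9-fold lower in Brahman (-4.52 ± 0.34, adjusted p = 0.000778), and the gap between the groups was far wider than either group. The Brahman mean lay above 18.1% of probe sets in those arrays. These 3 genes passed whichever of the 12 arrays was left out. The list of 17 measured eicosanoid and lipid oxidation enzymes was made with these 3 calls known. Its 2 members higher and 1 lower stand beside 0.197% and 0.0546% of the 9155 genes measured, and nothing is read from that count. PTGDS, the prostaglandin D synthase, was at 9.54, 9.16 and 9.17 against 7.42, 8.06 and 8.52 without overlap, but did not pass (-1.29, adjusted p = 0.15).

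CYP39A1, an oxysterol 7-alpha-hydroxylase of bile acid synthesis, stood at 7.70, 6.73 and 7.11 in Holstein-Friesian and at 8.93, 8.88 and 8.31 in Brahman skin. It was 2.88-fold higher in Brahman (1.53 ± 0.24, limma adjusted p = 0.0399). The call held only in the fits without infested Holstein-Friesian 1, infested Brahman 1 or infested Brahman 3, with an adjusted p of up to 0.155 without another array. It was the 1 call among 28 glutathione, quinone and xenobiotic enzymes, beside 0.197% of all genes called higher. The median difference of the list was -0.085 against 0.01 over all genes. GSTA4, which conjugates lipid peroxidation products, was at 0.83 (adjusted p = 0.237) and the thioredoxin reductase TXNRD1 at -0.91 (adjusted p = 0.243).

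FOXP1, a forkhead transcription factor, was called in both directions by its 2 probe sets. One probe set stood at 7.23, 6.78 and 6.85 in Holstein-Friesian and at 4.60, 4.21 and 4.28 in Brahman skin, 6.03-fold lower in Brahman (-2.59 ± 0.20, limma adjusted p = 0.000778). The other stood at 6.21, 4.99 and 5.57 against 8.32, 7.62 and 7.92, 5.14-fold higher in Brahman (2.36 ± 0.29, adjusted p = 0.0102). The direction of the gene as a whole is therefore not given by these data. Probe sequences were not used here. Whether sequence differences between taurine and indicine cattle lie under the probes of FOXP1, PON3, SYT4, BOLA-DYB or other called genes was not tested, so a gap in signal between the breeds need not be one in transcript level. The second call did not hold without infested Holstein-Friesian 3 (adjusted p = 0.0633), and the first held whichever array was left out.

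SYT4, a synaptotagmin of vesicle traffic, had the largest difference in RMA signal among the named genes. It stood at 9.64, 11.38 and 8.88 in Holstein-Friesian and at 4.39, 3.81 and 4.44 in Brahman skin, 54.0-fold lower in Brahman on the RMA scale (-5.76 ± 0.85, limma adjusted p = 0.031). The Brahman mean of 4.21 lay above 11.9% of probe sets in those arrays, and with signal over background unknown the size of this fold is uncertain. The Brahman arrays were uniformly low, and the Holstein-Friesian arrays were spread over more than 2 log2 units. Its other probe set was at -1.07 and did not pass (adjusted p = 0.419). The call did not hold without infested Holstein-Friesian 2 or 3, infested Brahman 2 or 3, or naive Holstein-Friesian 1 or 3 (adjusted p of up to 0.133).

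**Figure D2:**
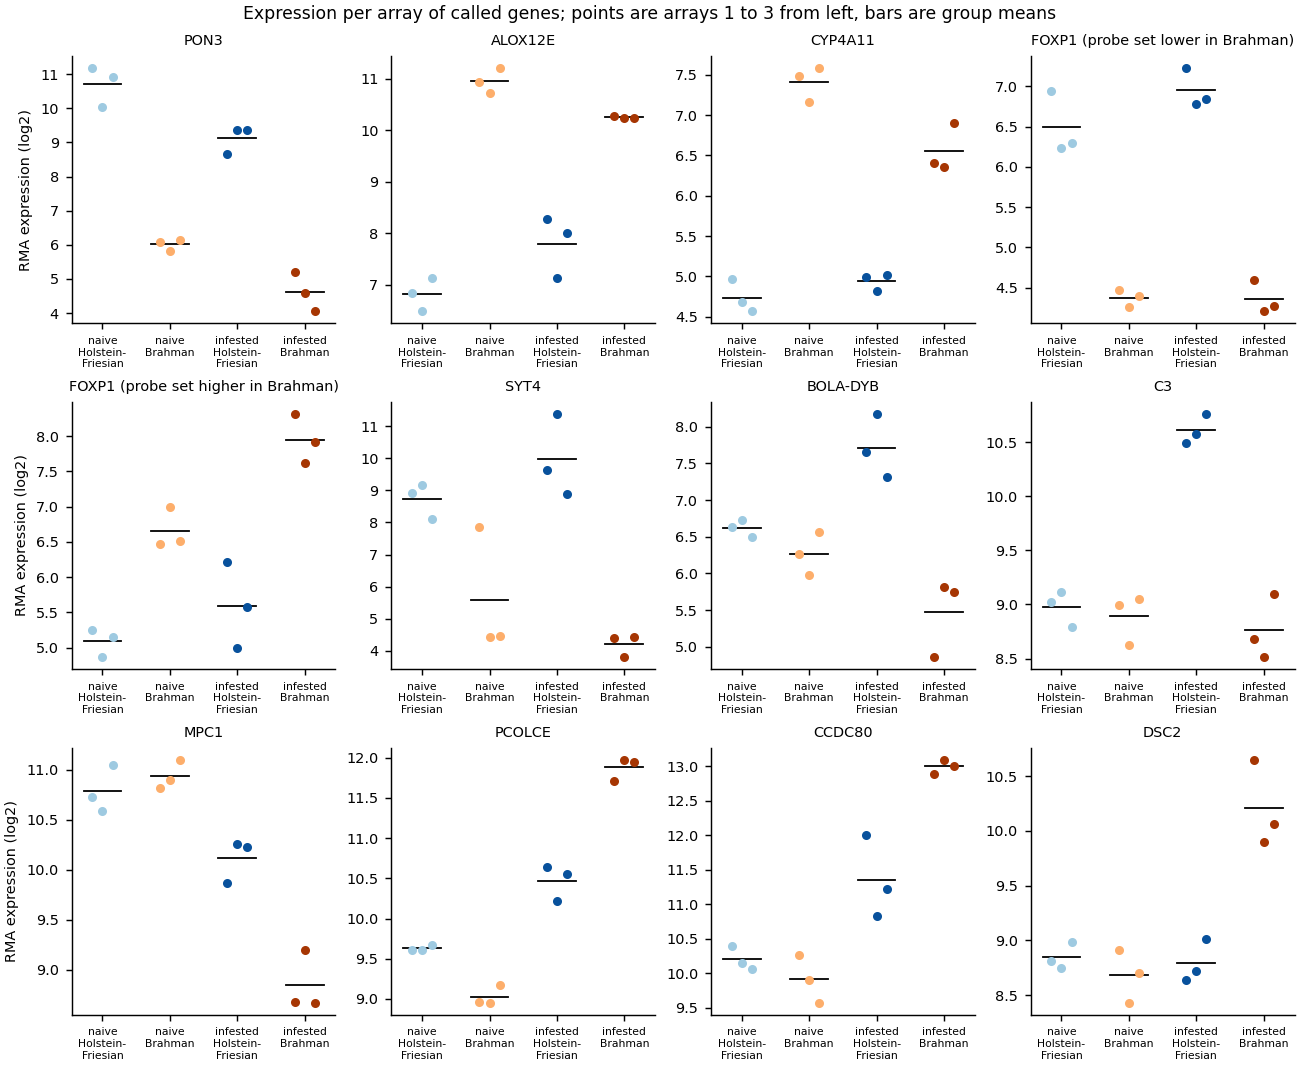
Expression (RMA, log2, vertical axes with separate ranges that do not start at 0) of 11 called genes in each of the 12 arrays, with FOXP1 shown for both of its probe sets. Points are arrays 1 to 3 of each group from the left and bars are group means. For PON3 the infested Brahman arrays lie at 5.20 or below and the infested Holstein-Friesian arrays at 8.66 or above. For C3 the 3 infested Holstein-Friesian arrays, at 10.49 to 10.76, stand above all others.

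The complement gene C3 and the MHC class II gene BOLA-DYB were lower in Brahman. C3, the central complement component, stood at 10.49, 10.58 and 10.76 in Holstein-Friesian and at 8.68, 8.52 and 9.10 in Brahman skin, 3.59-fold lower in Brahman (-1.84 ± 0.18, limma adjusted p = 0.00355). This probe set passed whichever array was left out. The other 2 of its 3 probe sets were at -1.10 and -0.84 and did not pass (adjusted p = 0.26 and 0.278). BOLA-DYB, a cattle MHC class II beta chain gene, stood at 7.65, 8.17 and 7.32 against 4.86, 5.82 and 5.75, 4.71-fold lower in Brahman (-2.24 ± 0.28, adjusted p = 0.0102). All 3 Brahman arrays lay below the Holstein-Friesian ones, and the call did not hold without infested Holstein-Friesian 2 (adjusted p = 0.0586). A probe set annotated to more than 1 gene was at 12.67, 13.63 and 12.89 against 8.18, 8.37 and 7.70 (-4.98 ± 0.70, adjusted p = 0.0226). It did not pass without infested Holstein-Friesian 2 or 3 or infested Brahman 2 or 3 (adjusted p of up to 0.133).

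Around these calls, most genes of the same pathways did not pass. BOLA-DYB was the 1 call among 14 MHC class II genes, beside 0.0546% of all genes called lower. It was also the 1 member without overlap, where 5.31% of all genes lay lower in every Brahman array. Its neighbour in name BOLA-DYA was at -0.69 (adjusted p = 0.26), the peptide-loading chain BOLA-DMA at -1.05 (adjusted p = 0.391), or -0.41 without infested Brahman 1, and the 5 probe sets of BOLA-DQB1, a polymorphic beta chain, lay between -1.63 and 1.16 with none passing. Of 21 complement genes, 6 lay lower in every Brahman array and 1 higher, against 5.31% and 7.08% of all genes, and none was called where the probe set with the highest mean stands for the gene. The 3 chains of C1q, which starts the classical pathway, were among the 6, with C1QC at -1.70, C1QB at -0.70 and C1QA at -0.86. C1QC stood at 6.11, 8.90 and 9.05 in Brahman skin, and without infested Brahman 1 its difference was -0.74 and that of C1QA -0.48. The protease C1R was at -0.86 (adjusted p = 0.266) and CFD, the complement factor D of fat tissue, at -0.76 (adjusted p = 0.241). C3 was the other, and the list median was -0.25.

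Genes of secreted matrix proteins were among the calls higher in Brahman. PCOLCE, which speeds the cleavage of procollagen, stood at 10.64, 10.22 and 10.56 in Holstein-Friesian and at 11.71, 11.98 and 11.95 in Brahman skin, 2.66-fold higher (1.41 ± 0.14, limma adjusted p = 0.00411). It passed whichever array was left out, and its other probe set was at 0.79 (adjusted p = 0.409). OLFML3, a secreted olfactomedin-family glycoprotein, stood at 9.33, 8.56 and 8.76 against 10.39, 10.40 and 10.24, 2.75-fold higher in Brahman (1.46 ± 0.18, adjusted p = 0.0102). CCDC80, a secreted matrix protein, stood at 12.00, 10.82 and 11.22 against 12.89, 13.10 and 13.01, 3.14-fold higher in Brahman (1.65 ± 0.27, adjusted p = 0.0476). In these 3 genes the Brahman arrays were closer together than the Holstein-Friesian ones and lay above them. OLFML3 did not pass without infested Holstein-Friesian 2 or 3 (adjusted p of up to 0.0649). CCDC80 passed only without infested Holstein-Friesian 1 or infested Brahman 1 (adjusted p of up to 0.164 without another array), and its other probe set was at -0.15.

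Other collagen genes did not pass with all arrays. PCOLCE was the 1 call among 22 collagen and collagen-processing genes, beside 0.197% of all genes called higher. The list median was 0.27 against 0.01 over all genes. Of the 22, 4 lay higher in every Brahman array and 1 lower, where the shares over all genes were 7.08% and 5.31%. The fibril collagen gene COL5A2 stood at 8.98, 8.75 and 9.28 against 9.67, 10.22 and 10.36 (1.08 ± 0.25, limma adjusted p = 0.143), and COL5A3 was at 1.24 (adjusted p = 0.164). COL3A1, the collagen of young dermis, was at 0.41 (adjusted p = 0.279), and COL1A1, the main dermal collagen, at 0.77. The lysyl hydroxylase gene PLOD2, whose product hydroxylates lysines of collagen, was the member lower in every Brahman array (-0.70, adjusted p = 0.196). Of 29 small leucine-rich proteoglycan and matrix glycoprotein genes, 5 lay higher in every Brahman array and none lower (7.08% and 5.31% of all genes), with a median of -0.07, or 0.25 without infested Brahman 1. OGN, a collagen-binding proteoglycan, was at 10.02, 9.56 and 10.10 against 11.31, 11.28 and 10.91 (1.27, adjusted p = 0.177) and KERA, another, at 1.37 (adjusted p = 0.284). POSTN, a matricellular protein of wounds, was at -1.99, and at -1.09 to -3.35 with 1 infested array left out. On the side of breakdown, 6 of 24 matrix proteases and inhibitors lay lower in every Brahman array and 1 higher (5.31% and 7.08% of all genes), and none passed. The median was -0.47, or -0.285 without infested Brahman 1. The sheddase ADAM10 was at -1.11 (adjusted p = 0.189), the lysosomal protease CTSL at -1.14 and the inhibitor TIMP4 at -0.82. The 3 probe sets of ADAM10 lay between -1.96 and -0.35 and those of TIMP4 between -0.82 and 0.07. The collagenase MMP1 stood at 10.13, 9.52 and 8.97 against 6.51, 9.16 and 4.89, so the groups overlapped (adjusted p = 0.241).

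The next calls were MPC1, GYG1 and DSC2, genes of energy metabolism and adhesion. MPC1, a subunit of the mitochondrial pyruvate carrier, stood at 9.87, 10.26 and 10.23 against 8.68, 9.20 and 8.67, 2.42-fold lower in Brahman (-1.27 ± 0.19, limma adjusted p = 0.031). Its partner subunit MPC2 was at -0.37 (adjusted p = 0.389). MPC1 was the 1 call among 20 genes of pyruvate entry and the citrate cycle, beside 0.0546% of all genes called lower. GYG1, the primer of glycogen synthesis, was 2.41-fold higher in Brahman (1.27, adjusted p = 0.00688). DSC2, a desmosomal cadherin, stood at 8.64, 8.73 and 9.01 against 10.65, 9.90 and 10.06, 2.66-fold higher in Brahman (1.41 ± 0.21, adjusted p = 0.0284). DSC1, the desmosomal cadherin of upper epidermis, was at -1.11 and did not pass. MPC1 did not pass without infested Holstein-Friesian 2 or 3, infested Brahman 3, naive Holstein-Friesian 1 or any 1 naive Brahman array (adjusted p of up to 0.143). DSC2 did not pass without infested Holstein-Friesian 2 or 3, naive Holstein-Friesian 1 or 3, or naive Brahman 3 (adjusted p of up to 0.133).

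The remaining named genes were higher in Brahman, except ARHGEF37. PARM1, a mucin-like membrane protein, was 2.83-fold higher (limma adjusted p = 0.00734) and passed whichever array was left out, as did GYG1. The splicing factor gene PRPF39 was at 1.40, NREP at 1.31, the endoplasmic reticulum peroxidase GPX7 at 1.27, the pepsin-family protease PGC at 1.22, and C11H2orf49 at 1.18, and the microRNA-silencing scaffold TNRC6B was 2.15-fold higher, with adjusted p from 0.0102 to 0.0485. ARHGEF37 was lower in Brahman, at 9.01, 9.21 and 9.46 against 8.31, 8.01 and 8.16 (-1.07 ± 0.16, adjusted p = 0.0311). The Wnt receptor gene FZD4 was at 0.98, the retrieval receptor KDELR3 of the endoplasmic reticulum at 0.90, the Ras exchange factor RASGEF1A at 0.88 and ZCCHC12 at 0.84. These 4 lay outside the rule for named genes and were added after their values were seen. The other probe sets of PRPF39, NREP, C11H2orf49, TNRC6B and FZD4 were at 0.22, 0.22, 0.41, 0.18 and 0.13 and did not pass. FZD4 did not pass without infested Holstein-Friesian 2, C11H2orf49 without infested Holstein-Friesian 2 or 3, and NREP and ZCCHC12 without these or infested Brahman 2 (adjusted p of up to 0.129). PRPF39 and TNRC6B passed only without infested Holstein-Friesian 1, infested Brahman 1 or infested Brahman 2, and GPX7 and PGC only without infested Holstein-Friesian 1, infested Brahman 1 or infested Brahman 3. KDELR3 passed only without infested Holstein-Friesian 1 or infested Brahman 1. RASGEF1A also passed without naive Holstein-Friesian 2 or 3, and ARHGEF37 passed without infested Holstein-Friesian 1, infested Brahman 1, or naive Brahman 2 or 3. In these 7 genes the adjusted p without another array was up to 0.214.

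The naive animals show which of these differences also stood between the breeds without ticks, although the naive groups differed in age. In the naive groups 6 of 24016 probe sets passed (0.025%), and 5 of these 6 (83.3%) were among the 40 of infested skin (12.5%), all in the same direction. They were ALOX12E, CYP4A11, PON3, the lower FOXP1 probe set and a probe set without a gene symbol. ALOX12E stood at 6.84, 6.49 and 7.14 in naive Holstein-Friesian and at 10.94, 10.73 and 11.21 in naive Brahman skin, a difference of 4.14 (limma adjusted p = 0.00016), so its breed difference was present in both sets of animals. PON3 was at -4.69 in naive animals (adjusted p = 0.000215), CYP4A11 at 2.67 (adjusted p = 0.00016) and FOXP1 at -2.12 (adjusted p = 0.00247). SYT4 stood at 7.86, 4.43 and 4.46 in naive Brahman skin against 8.90, 9.15 and 8.09, so 1 naive Brahman animal was close to the Holstein-Friesian range (-3.14, adjusted p = 0.464). Over the 40 probe sets, 29 had the same sign in naive animals, 22 of the 30 higher and 7 of the 10 lower. Some of these naive differences were near 0, as in ZCCHC12 (0.0084) and FZD4 (0.0512). In 13 of the 40 the naive groups also did not overlap, in the same direction. The shares over all probe sets were not counted, so nothing is read from these counts.

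The difference between the infested and the naive breed difference was tested for each probe set, and 1 of 24016 (0.00416%) passed, with 1792 (7.46%) at an unadjusted p below 0.05. That was PCOLCE, at 1.41 in infested and -0.60 in naive animals, a difference of 2.01 ± 0.20 (limma adjusted p = 0.019). OLFML3 stood at 1.46 and -0.68 and did not pass (adjusted p = 0.0572). C3 was at -0.09 in naive animals and BOLA-DYB at -0.34, and neither passed this test (adjusted p = 0.13 and 0.32). For SYT4, FOXP1 and the lipid enzymes the adjusted p of this test lay between 0.39 and 0.93 for the probe sets named.

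Cell type markers give the make-up of the biopsies, in which fewer cells of a type and less RNA per cell cannot be told apart. None of the 22 marker lists held a gene past the threshold with all arrays. Over all genes only 0.251% passed, so nothing is read from that absence. Plasma cell genes had lower means in Brahman, with wide spread. The immunoglobulin gamma constant gene IGCGAMMA stood at 11.87, 14.19 and 12.97 in Holstein-Friesian and at 7.24, 7.96 and 7.80 in Brahman skin (-5.34 ± 0.98, limma adjusted p = 0.0688). MZB1, a chaperone of antibody-secreting cells, stood at 7.76, 8.25 and 7.33 against 6.68, 5.36 and 5.47 (-1.95 ± 0.33, adjusted p = 0.0524), and the immunoglobulin joining chain JCHAIN at 11.07, 12.14 and 11.50 against 10.63, 8.02 and 8.47 (-2.53, adjusted p = 0.201). None of these passed, although the groups did not overlap for any of the 3. Of 13 B cell and plasma cell genes 4 lay lower in every Brahman array and none higher, against 5.31% and 7.08% of all genes. POU2AF1, a B lineage coactivator, was at -1.74 (adjusted p = 0.266), and the list median was -0.11.

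Macrophage markers had lower means in Brahman. CD5L, a secreted macrophage protein, stood at 9.03, 9.06 and 8.78 against 7.44, 7.78 and 7.47 and did not pass (-1.40 ± 0.28, limma adjusted p = 0.0873). It was 1 of 5 members of 13 that lay lower in every Brahman array, with the lipopolysaccharide co-receptor CD14 at -0.69 and the 3 C1q chains, and 1 member lay higher, where 5.31% of all genes lay lower and 7.08% higher. The list median was -0.13, or -0.52 without infested Brahman 1. The mean level of the list relative to the average of all 12 arrays was 0.722 to 1.024 in Holstein-Friesian and 0.337 to 0.563 in Brahman skin. Chemokines that attract neutrophils had lower means in Brahman and were unequal among animals. CXCL5 stood at 9.62, 10.12 and 9.53 against 8.88, 8.40 and 4.87, with the third Brahman animal far below the others (-2.38, adjusted p = 0.274, or -1.12 without it). CXCL2 stood at 7.44, 10.83 and 7.24 against 6.22, 6.94 and 4.16 (-2.73, adjusted p = 0.266, or -1.57 without infested Holstein-Friesian 2), and CXCL8 was at -1.88 (adjusted p = 0.381). The alarmin gene IL33 was at -1.05 (adjusted p = 0.237), and its 3 probe sets lay between -1.05 and -0.08. Of these 21 neutrophil-attracting chemokine and interleukin 1 genes 3 lay lower in every Brahman array and none higher, against 5.31% and 7.08% of all genes.

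Among neutrophil markers the median was -0.69 and 1 of 10 lay lower in every Brahman array (5.31% of all genes). PGLYRP1, an antibacterial granule protein, was at -1.44, the gelatinase MMP9 at -0.66 and the receptor CXCR1 at -0.97. Lactoferrin, LTF, was at -1.43, or 0.09 on its other probe set, and none of these markers passed. In contrast to these, CXCL13, the chemokine that attracts B cells, was higher in every Brahman array, at 5.76, 7.28 and 7.18 against 4.36, 3.93 and 4.25 (2.56 ± 0.53, limma adjusted p = 0.0987). The monocyte chemokine CCL8 was at -1.89 (adjusted p = 0.322). Without infested Holstein-Friesian 1 it passed at -2.93 (adjusted p = 0.00586), and without infested Holstein-Friesian 2 it was at -0.96. Of 19 T cell genes 5 lay higher in every Brahman array and none lower, beside 7.08% and 5.31% of all genes, with CD5 at 0.31, CD4 at 0.42 and CD8B at 0.41. The list median was 0.18, or 0.025 without infested Brahman 1. The dendritic cell genes FSCN1 and LY75 were at 0.81 (adjusted p = 0.0901) and -1.27 (adjusted p = 0.303).

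**Figure D3:**
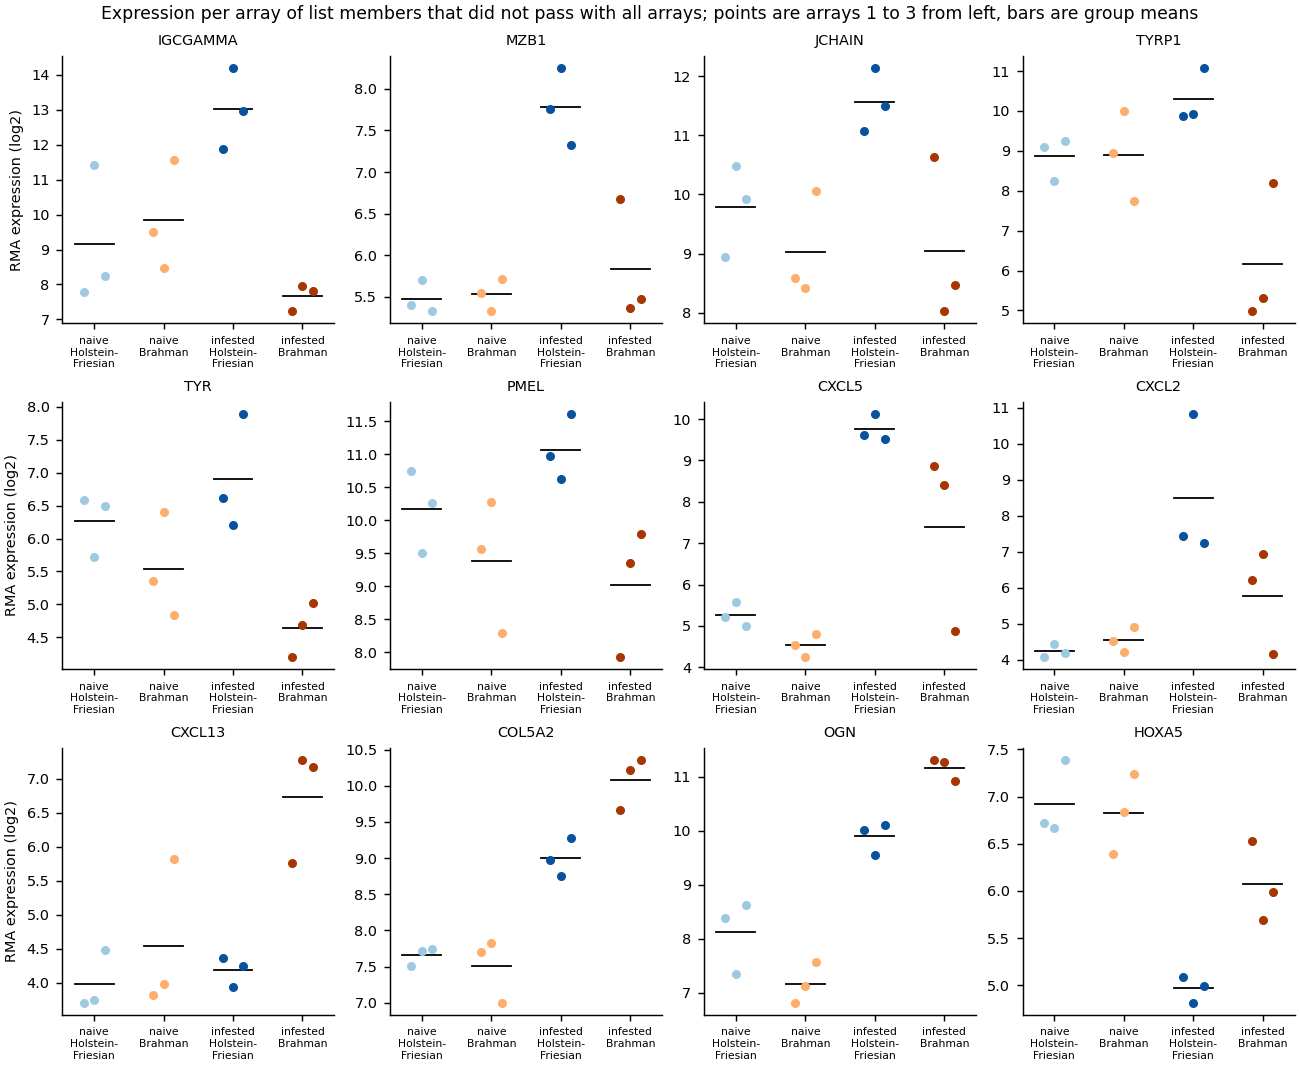
Expression (RMA, log2, vertical axes with separate ranges that do not start at 0) of 12 members of the gene lists that did not pass the test, in each of the 12 arrays. Points are arrays 1 to 3 of each group from the left and bars are group means. IGCGAMMA is at 7.96 or below in infested Brahman and at 11.87 or above in infested Holstein-Friesian skin, and CXCL5 shows the single low infested Brahman array at 4.87.

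Melanocyte and positional genes did not overlap between the breeds for several members, and none passed. TYRP1, a melanosome enzyme, stood at 9.88, 9.93 and 11.07 in Holstein-Friesian and at 4.98, 5.30 and 8.19 in Brahman skin (-4.14 ± 0.80, limma adjusted p = 0.0793). The rate-limiting pigment enzyme TYR stood at 6.61, 6.20 and 7.89 against 4.20, 4.69 and 5.02 (-2.26, adjusted p = 0.108), and PMEL, the melanosome fibril protein, at 10.97, 10.63 and 11.61 against 7.93, 9.34 and 9.78 (-2.05, adjusted p = 0.217). With the endothelin receptor EDNRB at -0.34, 4 of 9 melanocyte markers lay lower in every Brahman array and none higher, where the shares over all genes were 5.31% and 7.08%. Coat colour of the animals is not given in the labels. Of 11 HOX genes, which carry the position of skin along the body, 7 lay higher in every Brahman array and none lower (7.08% and 5.31% of all genes), with a median of 0.57. HOXA5 stood at 5.09, 4.82 and 5.0 against 6.53, 5.69 and 5.99 (2.15-fold higher, adjusted p = 0.183), HOXB4 was at 0.69, HOXC6 at 0.63 and HOXC5 at 0.57. The other probe sets of HOXA5 and HOXC6 were at -0.09 and 0.07. The naive median of the HOX list was -0.13. The body region of the biopsies is not given in the labels.

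Adipocyte genes had a median of 0.57, with 9 of 11 above 0, but 1 was higher and 1 lower in every Brahman array (7.08% and 5.31% of all genes). The lipid droplet gene CIDEC stood at 5.72, 4.65 and 5.31 against 8.02, 5.59 and 6.86, so the groups overlapped (1.60, limma adjusted p = 0.237). The lipase LIPE was at 0.76 and the adipokine ADIPOQ at 0.57. Without infested Brahman 1 CIDEC was at 1.00, LIPE at 0.63, ADIPOQ at 0.35 and the list median at 0.41. The list level was -0.186 to 0.004 in Holstein-Friesian and 0.364 to 0.602 in Brahman skin. Skeletal muscle list levels overlapped, at -0.563 to -0.335 and -0.535 to -0.277. Smooth muscle genes had a median of -0.605, or -0.23 without infested Brahman 1, where the level was -1.604.

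Stress and energy genes had medians slightly below 0, and none of the following passed with all arrays. Heat shock proteins and chaperones had a median of -0.38, with 5 of 23 lower in every Brahman array and 1 higher, against 5.31% and 7.08% of all genes. HSPH1 was at -1.23 (limma adjusted p = 0.189) and HSP90B1 at -1.10 (adjusted p = 0.277). The 4 HSPH1 probe sets lay between -1.23 and 0.05. Oxidative phosphorylation genes had a median of -0.19 with 5 of 39 lower in every Brahman array and none higher (the same shares over all genes apply), among them the succinate dehydrogenase subunits SDHA at -0.35 and SDHC at -0.34. In amino acid breakdown the monoamine oxidase MAOB was at 1.08 (adjusted p = 0.189), the tryptophan dioxygenase TDO2 at -3.20 and the tyrosine pathway enzyme HPD at -1.86 (adjusted p = 0.321). TDO2 stood at 8.58, 3.86 and 3.59 in Brahman skin. Without infested Brahman 1 it passed at -4.82 (adjusted p = 0.00952), and HPD was at -1.09.

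**Figure D4:**
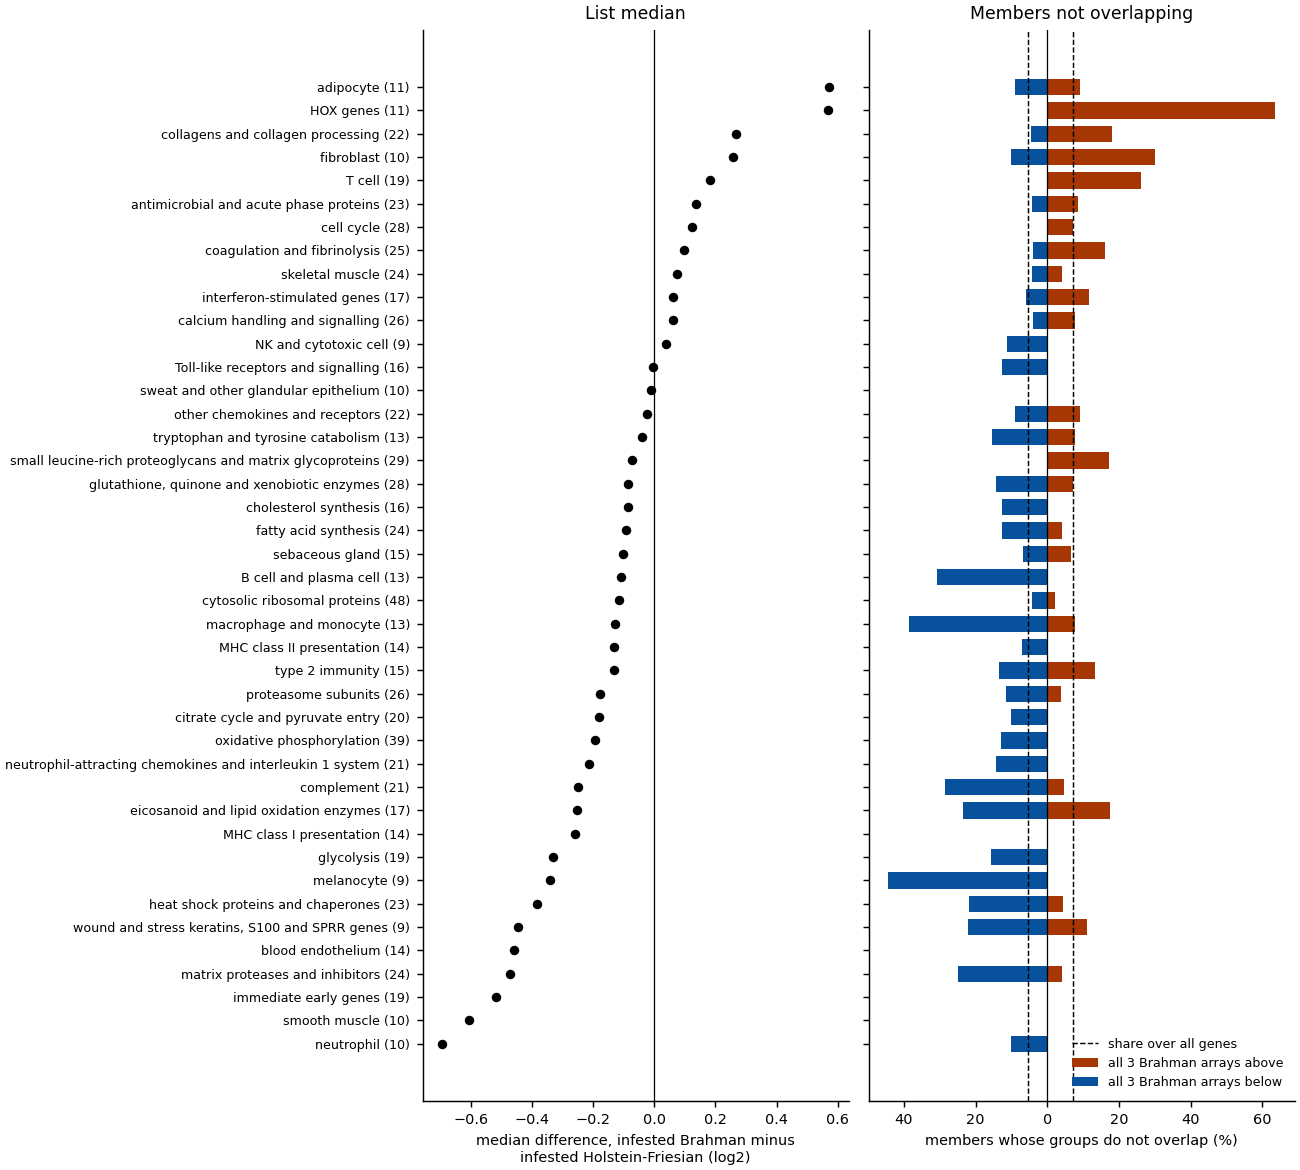
Gene lists with at least 9 measured members (number in brackets), ordered by the median difference of their members in log2 (left), and the percentage of members whose 3 Brahman arrays all lie above or all below the Holstein-Friesian arrays (right). Dashed lines are the shares over all genes, 7.08% above and 5.31% below. HOX genes show the largest share above, at 7 of 11, and melanocyte genes the largest share below, at 4 of 9.

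The 2 arrays of lowest integrity, Holstein-Friesian 1 and Brahman 1, moved the count of calls far more than the size of the called differences. Without them 2 infested arrays remained per breed. In that fit 2200 probe sets passed (9.16%), 903 higher and 1297 lower, and all 40 were among them. The share higher was then 41.0%, against 75% with all arrays. With the integrity index as a covariate 33 passed, 15 of them among the 40, and all 40 kept their sign at 0.743 times their size or more. Among the named genes these 15 held ALOX12E, CYP4A11, PON3, both FOXP1 probe sets, C3, BOLA-DYB, PCOLCE, PARM1, GYG1 and ZCCHC12. The infested arrays of similar index were Holstein-Friesian 1 against Brahman 2 and 3, chosen after seeing the data. Between them the 40 differences were 0.588 to 1.158 times their size with all arrays. Because the infested groups did not overlap in any of the 40, leaving out arrays could not change a sign. Nothing is read from the sign in this fit or in that without the 2 arrays. None of the 112 control probe sets passed in limma with all arrays, and 6 had an unadjusted p below 0.05.

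Several genes of the lists passed once those 2 arrays were left out, when 386 (4.22%) of 9155 genes were higher and 466 (5.09%) lower in Brahman. That fit rests on 2 infested arrays per breed. Among plasma cell genes IGCGAMMA (-5.70, limma adjusted p = 0.0168), MZB1 (-2.38, adjusted p = 0.00151), JCHAIN (-3.57, adjusted p = 0.00674) and POU2AF1 (-2.55, adjusted p = 0.00854) were then lower in Brahman. These 4 stood at -3.98, -2.35, -2.82 and -2.30 between the arrays of similar index. TYRP1 (-3.76, adjusted p = 0.032) and TYR (-2.19, adjusted p = 0.0455) were also lower. Of 22 collagen genes 8 were higher, among them COL5A2 (1.28, adjusted p = 0.0186) and COL1A1 (1.34, adjusted p = 0.00143). CXCL5 (-3.19, adjusted p = 0.0423), CXCL8 (-3.32, adjusted p = 0.0179) and IL33 (-1.55, adjusted p = 0.00854) were lower, and CXCL13 (3.14, adjusted p = 0.00934) was higher. Between the arrays of similar index CXCL8 stood at -0.43, IL33 at -0.52, and CXCL5 stood at -2.99 and CXCL13 at 2.87. Both choices of arrays hold the same infested Brahman arrays, 2 and 3. With only infested Brahman 3 left out, CXCL5 was at -1.12. POSTN turned direction between these 2 choices, at -2.66 without the 2 arrays and 1.42 between the arrays of similar index. With the index as a covariate the list medians were 0.38 for HOX, 0.40 for adipocyte, -0.51 for melanocyte and 0.37 for collagen genes. Those of T cell genes (-0.03) and of small proteoglycans and matrix glycoproteins (0.31) turned sign, and that of heat shock genes was -0.14. Between the arrays of similar index the HOX median was 0.183, against 0.568 with all arrays. The adipocyte, melanocyte and collagen medians between those arrays were 0.466, -0.716 and 0.369.

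**Figure D5:**
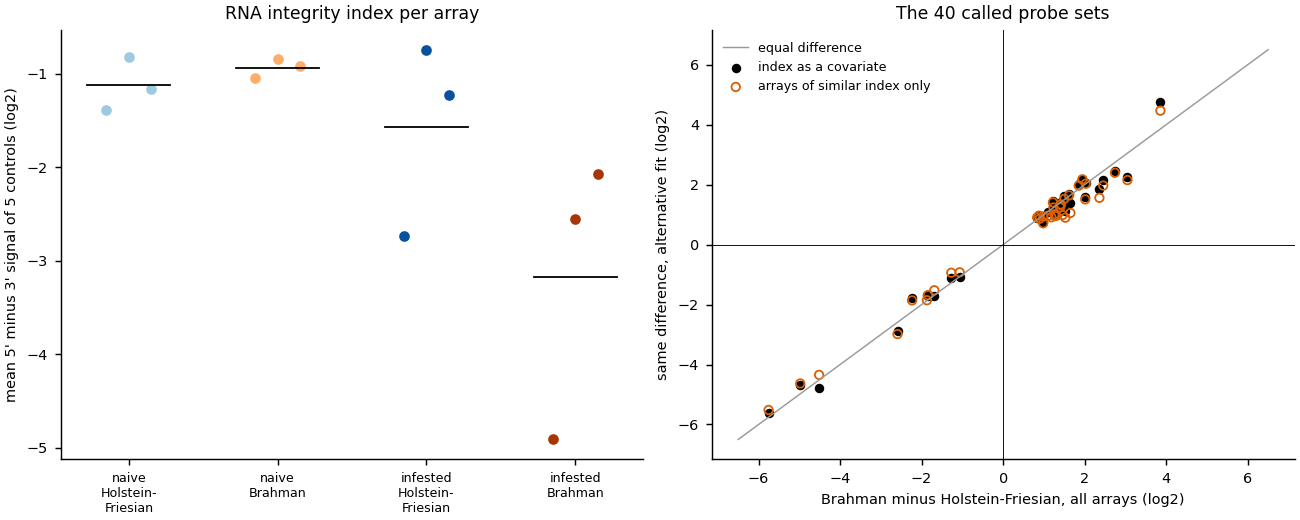
RNA integrity index of the 12 arrays (left, mean 5' minus 3' log2 signal of 5 control transcripts, points are arrays 1 to 3 from the left and bars are group means) and the breed difference of the 40 called probe sets under 2 other fits against that with all arrays (right, log2). Infested Brahman 1 has the lowest index, at -4.91. With the index as a covariate the 40 differences are 0.743 to 1.236 times those with all arrays. Between arrays of similar index they are 0.588 to 1.158 times those with all arrays.

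Leaving out each array in turn shows which animals the calls rest on. Of the 40 calls, 40 held without infested Holstein-Friesian 1 and 39 without infested Brahman 1, 10 without infested Holstein-Friesian 2 and 12 without infested Holstein-Friesian 3. Without infested Brahman 2 or 3 there remained 22 and 28, and without 1 naive array 22 to 28. Among these 40 no difference moved by more than 1.5 times. No sign could change, because the infested groups did not overlap in any of the 40. Leaving out a naive array changes the estimate of the spread but not the difference. The 9 calls that held in each of these 12 fits were ALOX12E, CYP4A11, PON3, the lower FOXP1 probe set, C3, PCOLCE, PARM1, GYG1 and a probe set without a single gene symbol (2.74). None of these 9 passed in a fit of the 6 infested arrays alone. The 1 call of that fit was the probe set annotated to more than 1 gene, at -4.98. Of the 64 list members named here that did not pass with all arrays, 23 passed without infested Holstein-Friesian 1, among them IGCGAMMA at -5.91 (limma adjusted p = 0.0143), MZB1 at -1.96 (adjusted p = 0.0194), TYRP1 at -4.35 (adjusted p = 0.0256) and CXCL13 at 2.65 (adjusted p = 0.0353). Leaving out infested Brahman 1 gave 7, among them JCHAIN at -3.32 (adjusted p = 0.0297) and COL5A2 at 1.29 (adjusted p = 0.048). MMP1 passed without infested Brahman 2 (-3.84, adjusted p = 0.0198), TYRP1 without infested Brahman 3 (-5.15, adjusted p = 0.0192), IGCGAMMA without naive Holstein-Friesian 2 (adjusted p = 0.0364) and CXCL13 without naive Brahman 3 (adjusted p = 0.0455). Of the 64, 23 moved by more than 1.5 times without at least 1 infested array, 10 of them without infested Brahman 1 and 9 without infested Holstein-Friesian 2, and none changed sign.

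Probe sets of 1 gene did not always move together. Of 2913 genes with at least 2 probe sets, 10 held a call, and FOXP1 was the 1 gene with every probe set called and the 1 with calls in both directions. Where at least 2 probe sets of a gene did not overlap between the breeds, which held for 104 genes, 27 (26.0%) had them in opposite directions.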

How the data were processed

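RNA from whole-skin biopsies of 12 cattle, 3 in each of 4 groups, was hybridised to 1 array each. The authors used RMA, per the submitters' processing notes, of which the tool's name alone was used. In its usual form RMA corrects background, quantile-normalises the arrays and summarises probes. The software and the chip definition were not given in the sources used here. For each array the authors deposited 1 value per probe set, taken as log2 from its range. Of the 24128 deposited probe sets, 112 controls were left out of the tests. Symbols were those of the platform annotation (13292 probe sets with 1 symbol, 86 with several, 10638 with none), and for lists each of 9155 genes was read on its probe set with the highest mean over the 12 arrays.

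A model of 4 group means was fitted to all 12 arrays in limma 3.58.1 under R 4.3.3 (lmFit and eBayes, 8 residual and 3.03 prior degrees of freedom, two-sided), with Benjamini-Hochberg adjustment over the 24016 probe sets of each contrast and a threshold of 0.05. Signal over background is unknown, since no detection calls were used, and precision is limited by the 3 arrays per group. The 51 gene lists and the members named were chosen with earlier results of these data known. Named were up to 15 genes per direction with the largest difference past the threshold and without overlap (1 probe set each, besides the second FOXP1 probe set), and up to 4 members of each list by smallest p, besides defining markers. In the list level, each member's mean over all 12 arrays was subtracted. Same-numbered infested arrays of the breeds correlated in their deviations by 0.0946, -0.0044 and 0.1899, so the numbers were not taken as pairs. The alternatives were another centring, cyclic loess, a filter removing the 40 percent of probe sets with the lowest mean, a trended and robust prior, the 6 arrays alone, array weights, a replicate block, the integrity index, and leaving out arrays. The fit was tested on simulated data of 24016 probe sets and recovered, for this comparison, 49% of 1 log2 changes and 91% of 2 log2 changes, with 8 false calls.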

Additional observations from a re-analysis of the deposited data

Results flagged for a closer look

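PCOLCE, the enhancer of procollagen processing, differed between breeds to an unequal degree in infested and naive animals. It was 1.41 higher in infested Brahman skin and stood at -0.60 in naive Brahman skin, a difference between the breed differences of 2.01 log2 (limma adjusted p = 0.019). In infested skin the Brahman arrays were at 11.71, 11.98 and 11.95 and the Holstein-Friesian arrays at 10.64, 10.22 and 10.56. The infested animals were 6 months old and the naive ones 12 or 18 months, so infestation and age cannot be told apart in this difference. With the integrity index as a covariate the infested difference of this probe set passed (adjusted p = 0.02), and its other probe set did not pass with all arrays (0.79).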

How the results depend on the processing

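The count of 40 probe sets was 43 with each array centred on its median, 36 with cyclic loess, 52 with a trended and robust prior, 33 with the integrity index as a covariate, 59 between arrays of similar index and 35 with a 2-fold minimum. It was 25 with the low-signal filter (60% higher), 1 in the 6 infested arrays alone (1570 at an unadjusted p below 0.05), 1082 with array weights (39.3% higher) and 2200 without the lowest-index infested array of each breed. With 1 array left out it ranged from 11 without infested Holstein-Friesian 2 to 1235 without infested Holstein-Friesian 1 (37.3% higher). With the replicate block in all 12 arrays 41 passed (61.0% higher), 29 of them among the 40, and with the block in the 6 infested arrays 0 passed in limma (1826 at an unadjusted p below 0.05).

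Over 23 alternatives, 590 values of the 26 called genes held 378 that still passed, 212 that did not and 0 of opposite sign. In fits that only leave out arrays the sign could not change, since the infested groups did not overlap in any called probe set. Of 1456 values of 64 uncalled genes, 1348 kept sign and side of the threshold, 102 passed and 6 reversed: POSTN with the index as a covariate (0.15), and between arrays of similar index POSTN (1.42), DSC1 (0.36), LIPE (-0.14), CCL8 (0.0909) and HSP90B1 (0.0047). Of 1223 list medians 86 moved by more than the spread between arrays. The cause of these changes was not tested. Differences of 1 log2 were recovered in about 49% of simulated cases, so a gene that did not pass is not shown to be equal between the breeds.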

Other observations

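Several gene groups had small median differences between the infested breeds. Of 48 cytosolic ribosomal protein genes 1 lay higher and 2 lower in every Brahman array, with a median of -0.115 log2. Among 28 cell cycle genes 2 lay higher and none lower (median 0.12), among 17 interferon-stimulated genes 2 higher and 1 lower (0.06), and among 25 of coagulation and fibrinolysis 4 higher and 1 lower (0.10). Over all genes 7.08% lay higher and 5.31% lower in every Brahman array. No member of these lists passed, where 0.251% of all genes did. Blood endothelium (median -0.46 over 14 genes) and immediate early genes (-0.52 over 19) had low medians, but in none of their members did the groups fail to overlap. The immediate early median was 0.04 with the integrity index as a covariate, where that of blood endothelium was -0.225.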
